A study of Mus musculus with 55 samples.

Results

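The tumours described here are the BBN963 tumours of C57BL/6 mice (called B6) that were treated with entinostat or with vehicle and had an RNA library. They are 11 of the series' 55 samples, namely 5 entinostat and 6 vehicle tumours, taken by their treatment label. BBN963 is a mouse bladder cancer cell line, and its cells were injected under the skin of each mouse. Mice were randomized when tumours reached 200 mm3, and entinostat was given in chow at 12 mg/kg. The labels give the collection volume of entinostat tumours, 100 mm3, but not that of vehicle tumours, so treatment and tumour size cannot be told apart. The sixth entinostat tumour, 403, was not analysed here. Another 4 tumours of the same line and host, labelled baseline, entered the statistical fit to add to its estimate of the spread between tumours. All 15 tumours are 1 cell line in 1 strain of mouse, grown outside the bladder, and the labels state neither the age nor the sex of the animals.

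Entinostat inhibits class I histone deacetylases, enzymes that remove acetyl groups from histone tails and work within larger corepressor complexes. Their inhibition raises histone acetylation and changes transcription of many genes in both directions. A bladder tumour under the skin holds carcinoma cells of epithelial type together with fibroblasts, vessels and leukocytes of the host, and bulk RNA sums over all of them. In such RNA, fewer cells of a type and less RNA per cell cannot be told apart.

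Values were deposited as counts normalized between libraries (called normalized counts below), and tests were run on log2 of the value plus 1, so that fold changes of low genes are understated. Each tumour was taken as 1 replicate, and p-values measure the spread between tumours. The libraries had 18996 to 21928 genes above 0 and a summed signal of 21233000 to 33352000 normalized counts. The labelled tissue was checked with 4 epithelial markers (Krt8, Krt18, Epcam and Cdh1). Their summed level was 24780 to 46550 in vehicle tumours and 1024 to 3830 in entinostat tumours. RNA of these markers was present in every library and at a far lower level under entinostat. The sum does not tell which cells made this RNA, and the part of tumour epithelium in the results below was not tested.

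The 6 vehicle libraries did not differ from each other to the same degree. Over 8306 genes with a mean of at least 500, the SD of the log2 difference between vehicle tumours 408 and 414 was 0.19. For the other 14 pairs of vehicle tumours it was 0.76 to 1.61, and for the 10 pairs of entinostat tumours 0.50 to 0.85. The labels name 408 and 414 as separate animals, and the deposited values cannot be turned back into reads to test their difference against counting error. Both were kept as labelled, and with their mean as 1 sample 4863 genes were called higher and 4134 lower, against 5093 and 4460 with both. Xist, expressed from the inactive X chromosome, was above 0 and the Y-linked genes Ddx3y, Eif2s3y, Kdm5d and Uty were at 0 in all 11 tumours. The other vehicle tumours varied widely, with tumour 402 nearest to and tumour 405 farthest from the entinostat tumours on the first principal component, which held 67.9% of the variance.

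**Figure D1:**
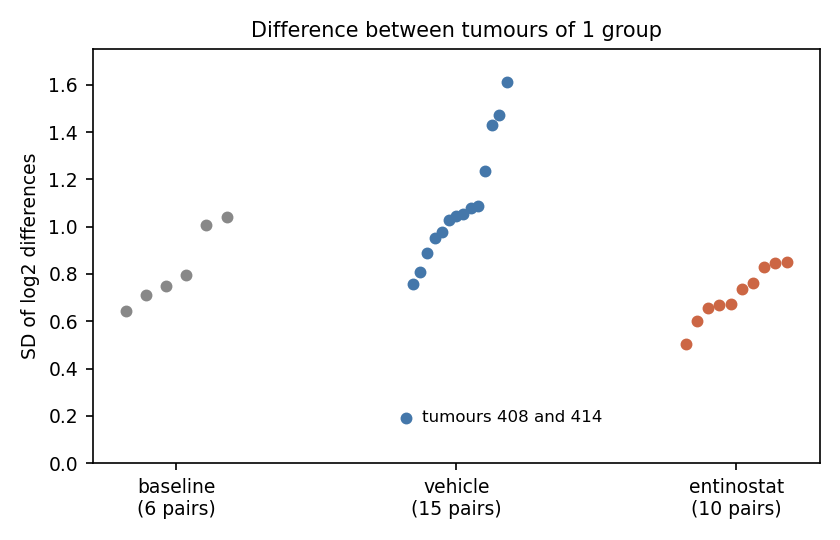
SD over 8306 genes of the log2 difference between pairs of tumours of 1 group (vertical axis) for baseline, vehicle and entinostat tumours, 1 point per pair. Vehicle tumours 408 and 414 sit at 0.19, and all other pairs lie between 0.50 and 1.61.

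Of 17053 genes tested, 9553 (56.0%) passed an adjusted p of 0.05, with 5093 (29.9%) higher and 4460 (26.2%) lower in entinostat tumours. At least 2-fold differences were called for 4009 genes (23.5%) upward and 2687 (15.8%) downward. The 5 entinostat tumours lay wholly above the 6 vehicle tumours in 3322 genes (19.5%) and wholly below in 2692 (15.8%). The median log2 fold change over all genes tested was -0.01. A called gene is thus the rule in this comparison, and the gene groups below are read against these shares.

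The 10 largest differences in each direction were taken among called genes without overlap and with a mean of at least 500. Upward they were Npy, Acta1, Tnn, Cd36, Mamdc2, Ckm, Eef1a2, Pvalb, Myh4 and Capn6, with log2 fold changes of 8.24 to 9.98. Acta1, Ckm, Pvalb and Myh4 are genes of skeletal muscle, and their values came mostly from entinostat tumour 413, as for Ckm with 98.3, 60050, 6.28, 191 and 1992 in tumours 411, 413, 418, 421 and 423, the order used throughout. Downward they were Fgfbp1, Sprr2a2, Gpx2, Krt4, Krt14, Psapl1, Sprr2a3, Krt13, Pkp1 and Tmprss11b, with -10.75 to -9.70. Krt4, Krt13 and Krt14 code for keratins, and Pkp1 for plakophilin 1 of the desmosome. The smallest p-values upward went to Psap, Ctsb, Dnase1l1, Creg1, Ptk2b, Hacd4, Glipr1, Cd200r4, Slamf7 and Fth1. Downward they went to Dsc2, Lad1, Acsbg1, Otx1, Cdh1, Vsnl1, Ivl, Cdc20, Esrp2 and Cdcp1.

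The composition of the RNA changed with the treatment. Keratin genes, which code for the intermediate filaments of epithelial cells, went from 2.27 ± 1.19% (SD, n = 6) to 0.00853 ± 0.00676% (SD, n = 5) of the summed signal. Genes of ribosomal proteins went from 10.99 ± 3.36% (SD, n = 6) to 5.12 ± 1.38% (SD, n = 5). Collagen genes gained share, from 0.769 ± 1.04% (SD, n = 6) to 4.44 ± 0.894% (SD, n = 5). Cathepsins, the proteases of the lysosome, gained as well, from 0.333 ± 0.146% (SD, n = 6) to 3.43 ± 0.792% (SD, n = 5). Keratin, collagen and cathepsin shares did not overlap between the groups, with vehicle tumour 402 nearest for collagens (2.86%, against 3.68 to 5.83% in entinostat tumours). Shares of ribosomal proteins did overlap, since vehicle tumour 402 (6.68%) was below entinostat tumour 421 (6.99%).

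The single genes that gained the largest share were Lyz2, Apoe, Col3a1, Spp1, Psap, Col1a2, Ctsd, Ftl1, Ctsb and Mmp12. Lyz2, the lysozyme of macrophages and neutrophils, went from a mean of 0.0558% to 1.95% of all signal, with no correction for gene length, and Apoe, the lipid carrier secreted by macrophages, from 0.0583% to 1.62%. Spp1, the secreted phosphoprotein osteopontin, went from 0.0135% to 1.26%. The largest losses were Krt14, Eef1a1, Gsto1, Krt6a, Krt5, Igfbp3, Rplp0, Anxa1, Krt13 and Rpsa. Krt14, a keratin of basal epithelial cells, went from 0.664% to 0.000583%. Eef1a1, the elongation factor that brings tRNA to the ribosome, went from 1.17% to 0.572%. Anxa1 was the only gene of these 20 that missed the threshold (log2 fold change -1.14, SE 0.48, adjusted p = 0.056), and it passed without vehicle tumour 402 (-1.37, adjusted p = 0.021).

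Genes of epithelial structure were lower in entinostat tumours almost without exception. Over 6 lists (simple keratins, desmosomes, hemidesmosomes, tight junctions, epithelial transcription factors and membrane proteases), 65 of 70 genes were called lower and 2 higher, against 26.2% and 29.9% of all genes, with a median log2 fold change of -4.96. The median level of these genes on the log2 scale was 10.8 to 11.8 in vehicle tumours and 4.69 to 6.70 in entinostat tumours. Entinostat tumour 418 held the highest value of its group in 33 of the 70 genes.

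**Figure D2:**
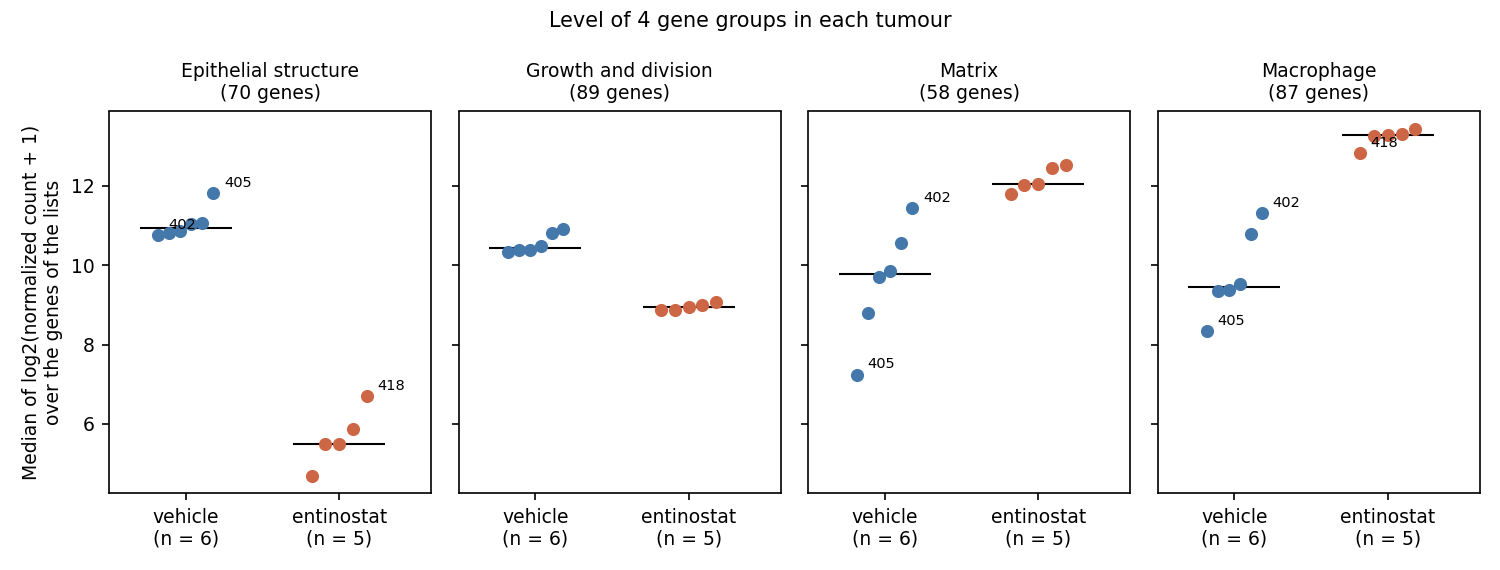
Median of log2(normalized count + 1) over the genes of 4 groups of lists (vertical axis) in each of 6 vehicle and 5 entinostat tumours. Points are tumours and the horizontal line is the median of the group. The macrophage group includes the lysosome and complement lists. Epithelial and growth groups sit lower and matrix and macrophage groups higher in every entinostat tumour than in every vehicle tumour. Vehicle tumours spread most in the matrix genes, from 7.24 in tumour 405 to 11.4 in tumour 402.

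Desmosomes, the spot welds between epithelial cells, had 11 of 12 tested genes lower, with a median log2 fold change of -7.21. Pkp1, a plakophilin that links desmosomal cadherins to keratin, was at 20.9, 25.1, 117, 9.70 and 5.99 normalized counts in the entinostat tumours. Pkp1 in vehicle tumours was at 8485 to 35310, median 24370 (log2 fold change -9.86, SE 0.59, adjusted p = 1.9e-08). The lowest vehicle tumour was thus far above the highest entinostat tumour, which was 418. Dsc2, a desmosomal cadherin, was at 19.8, 33.9, 23.9, 17.4 and 38.7 against 2485 to 9643, median 4393 in vehicle tumours (log2 fold change -7.45, SE 0.35, adjusted p = 1.8e-09). Perp, a membrane protein of desmosomes and a p53 target, fell by 8.35 on the log2 scale (adjusted p = 6.4e-08). Pkp2, another plakophilin that is also made outside epithelia, was the 1 desmosome gene that rose, by 1.56 (adjusted p = 0.0066), with values of 293, 372, 232, 233 and 510.2 against 62.1 to 279, median 80.8. Its groups overlapped.

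Hemidesmosomes, which anchor basal cells to laminin, had 7 of 9 genes lower and none higher. Col17a1, their transmembrane collagen, was at 17.4, 59.0, 158, 13.6 and 20.3 against 5980 to 42640, median 20900 in vehicle tumours (log2 fold change -9.05, SE 0.62, adjusted p = 5.6e-08). Itgb4, the integrin chain of the same structure, fell by 4.95 on the log2 scale (adjusted p = 1e-07). Lad1, a protein of the basement membrane zone, had among the smallest p-values of all genes, at 60.5, 85.6, 107, 86.8 and 50.2 against 5103 to 11980, median 10840 (log2 fold change -6.84, SE 0.26, adjusted p = 6e-10).

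All 14 tested tight junction genes fell, with a median of -4.50. Crb3, an apical polarity protein, was at 18.9, 18.6, 32.5, 5.66 and 15.4 in entinostat tumours against 350.0 to 1179, median 678 (log2 fold change -5.22, SE 0.42, adjusted p = 1.9e-07). Pard6b, a partner of the same polarity complex, was at 18.6, 19.2, 10.7, 8.11 and 28.9 against 204 to 818, median 364 (log2 fold change -4.59, SE 0.37, adjusted p = 2.1e-07). The groups did not overlap in either gene. Cldn4, a claudin of the junctional strands, fell by 6.14 on the log2 scale (adjusted p = 6.4e-07). Cdh1, the E-cadherin of adherens junctions, was at 792, 858, 703, 717 and 856 against 9827 to 14570, median 13100 (log2 fold change -4.02, SE 0.17, adjusted p = 7.4e-10). Cdh1 was thus about 16.3-fold lower, a smaller difference than for Pkp1 or Dsc2, and its entinostat values lay close together.

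Promoters of tight junction genes are shown because this list fell as a whole and because the repressors SNAI and ZEB are known to bind the E-box CACCTG in promoters of epithelial genes. The windows are RefSeq sequences of build GRCm38.p6, from 250 bases before to 50 after a transcription start, with 1 window (the most upstream start) for each gene. The letters CACCTG stood on either strand in 8 of 12 tight junction genes with a window, and in 18.0% of 12059 tested genes with one. The part of the E-box in the fall of the list was not tested. Capitals mark the match, which reads CAGGTG where it lies on the other strand. Crb3 is from chr17:57062167-57062200, plus strand, and Pard6b from chr2:168080891-168080950, plus strand.
Crb3: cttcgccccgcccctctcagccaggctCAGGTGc
Pard6b: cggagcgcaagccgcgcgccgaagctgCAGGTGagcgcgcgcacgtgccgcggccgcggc

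Among 19 epithelial transcription factors, 18 fell and 1 rose (median -6.86). Grhl2, a grainyhead factor that maintains epithelial genes, was at 14.5, 8.87, 38.2, 8.06 and 3.58 against 948 to 2112, median 1691 (log2 fold change -7.05, SE 0.41, adjusted p = 1.6e-08). Klf5, a Krüppel-like factor of epithelia, was at 9.30, 4.80, 8.52, 0 and 6.02 against 546 to 1967, median 866 (log2 fold change -7.41, SE 0.54, adjusted p = 9.1e-08). Trp63, the master factor of basal epithelium, was at 31.7, 75.7, 74.2, 8.92 and 23.4 against 2237 to 13270, median 6622 (log2 fold change -7.36, SE 0.55, adjusted p = 9.9e-08). These 3 factors were each low in all entinostat tumours and high in all vehicle tumours. Pparg, a nuclear receptor of the luminal urothelium that fat cells and macrophages also make, was the exception, at 448, 236, 342, 310.7 and 252 against 26.4 to 251, median 77.6 (log2 fold change 2.06, SE 0.55, adjusted p = 0.0052). The 4 adipocyte markers (Adipoq, Plin1, Cidec and Lep) summed to 2.39 to 1091 in vehicle and 47.8 to 4218 in entinostat tumours, and their part in the Pparg difference was not tested. Esrp2, a splicing regulator of epithelial cells, fell by 5.12 (adjusted p = 1.5e-09). Otx1, a homeobox factor, was listed at 0 in all 5 entinostat tumours against 93.9 to 196, median 189 in vehicle tumours.

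Receptors and ligands of the ERBB family, which drive epithelial growth, were lower in 8 of 10 genes. Erbb2 was at 249.9, 259, 448, 248 and 264 against 1661 to 2674, median 2125 (log2 fold change -2.86, SE 0.19, adjusted p = 5.3e-08), and the ligand gene Tgfa at 26.6, 57.1, 44.8, 27.8 and 51.6 against 843 to 1395, median 1281 (log2 fold change -4.84, SE 0.29, adjusted p = 1.9e-08). Egfr did not follow them. It was at 2092, 1735, 2487, 2398 and 2154 against 1067 to 2233, median 2102, and the 95% interval of its log2 fold change was -0.22 to 0.58 (adjusted p = 0.42). All 9 membrane proteases and inhibitors of epithelia fell. Among them St14, the protease matriptase, was at 209, 252, 386, 193 and 212 against 3410 to 9453, median 5545 (log2 fold change -4.56, SE 0.24, adjusted p = 5.9e-09), and Serpinb5, the inhibitor maspin, fell by 8.51 (adjusted p = 6.4e-08). Fgfbp1, a carrier of fibroblast growth factors, was at 4.69, 16.9, 0, 1.64 and 0 against 2468 to 15090, median 3593, and Ivl, the envelope protein involucrin, at 1.16, 2.40, 2.13, 0 and 2.41 against 446 to 1436, median 656.

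Simple keratins fell less evenly. Krt7 was at 380.2, 636, 480.4, 269 and 50.4 against 4394 to 58070, median 16830 (log2 fold change -5.92, SE 0.72, adjusted p = 9.5e-06). Krt18 was at 164, 159.6, 1301, 185 and 45.8 against 1026 to 5172, median 1623 (log2 fold change -3.42, SE 0.69, adjusted p = 0.00074). The groups overlapped for Krt18 because tumour 418 stood above the lowest vehicle tumour, and the same tumour held the highest entinostat value of Krt8, 948, against 600.1 to 9478, median 1718 in vehicle tumours (log2 fold change -3.58, SE 0.97, adjusted p = 0.0056).

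Genes of growth and cell division fell together. Over the lists for DNA replication, mitosis, homologous recombination, ribosome biogenesis and tRNA synthetases, 85 of 89 genes were called lower and none higher (median -1.43). Their median log2 level was 10.3 to 10.9 in vehicle and 8.86 to 9.08 in entinostat tumours, so that the tumours of each group lay close together. The difference was smaller than in epithelial genes. In DNA replication 22 of 24 genes fell, among them Mcm5, a subunit of the replicative helicase, at 423, 495, 384, 512 and 424 against 1787 to 2569, median 1995 (log2 fold change -2.23, SE 0.16, adjusted p = 7.7e-08). Rrm2, a subunit of ribonucleotide reductase, fell by 2.86 (adjusted p = 9.8e-08). All 13 homologous recombination genes fell, led by Bard1, the partner of BRCA1, at 38.3, 51.5, 40.6, 38.9 and 44.5 against 315.5 to 433, median 367 (log2 fold change -3.09, SE 0.18, adjusted p = 1.4e-08).

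In mitosis 17 of 18 genes fell (median -2.29). Kif11, the kinesin that separates spindle poles, was at 310.1, 430.4, 297, 206 and 376 against 1566 to 2080, median 1916 (log2 fold change -2.58, SE 0.17, adjusted p = 5.1e-08). Ccnb2, a mitotic cyclin, was at 318, 413, 419.5, 313 and 313 against 1561 to 2527, median 1989 (log2 fold change -2.44, SE 0.18, adjusted p = 9.1e-08). Cdc20, the activator of the anaphase-promoting complex, was at 240.0, 240.1, 276, 259.6 and 231 against 1789 to 2517, median 2261 (log2 fold change -3.12, SE 0.14, adjusted p = 1.5e-09). For each of the 3 the spread within a group was small beside the distance between groups. Promoters of this list are shown for the CHR element TTTGAA, through which the DREAM and MuvB complexes are known to act on mitotic genes. It stood in 10 of 16 windows of the list and in 12.6% of the windows of all tested genes, both strands searched. The element is known from mitotic genes, and its part in their fall was not tested. Kif11 is from chr19:37376336-37376381, plus strand, and Ccnb2 from chr9:70421689-70421748, minus strand, with the match in capitals (TTCAAA on the other strand).
Kif11: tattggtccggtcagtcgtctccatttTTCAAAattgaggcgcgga
Ccnb2: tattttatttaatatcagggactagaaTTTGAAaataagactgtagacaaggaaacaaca

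Genes of the step from G1 into S phase split. Of 15 tested, 8 fell and 4 rose. Myc was at 549, 378, 470.5, 687 and 516 against 1864 to 5288, median 2462 (log2 fold change -2.45, SE 0.27, adjusted p = 3.6e-06). Ccnd1, a cyclin that starts the cycle, fell by 2.22 (adjusted p = 1.2e-05) and Ccnd2 by 2.03 (adjusted p = 3.9e-05). The 4 that rose were Rb1 and Rbl2, pocket proteins that hold back E2F factors, and E2f1 and E2f2, by 1.02 (adjusted p = 0.0033), 0.64 (adjusted p = 0.048), 0.96 (adjusted p = 0.00088) and 1.06 (adjusted p = 0.0018) on the log2 scale. Rbl2 lost its call in 11 of 20 alternative settings, among them without entinostat tumour 423 (0.52, adjusted p = 0.13).

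Genes that make ribosomes and charge tRNA fell by smaller amounts. All 16 ribosome biogenesis genes fell (median -1.25), with Nop58, a core protein of box C/D particles, at 948, 1006, 924, 793 and 894 against 2692 to 4523, median 3808 (log2 fold change -2.04, SE 0.14, adjusted p = 4.8e-08). Of 18 tRNA synthetase genes 17 fell (median -0.998). Kars, the lysyl enzyme, was at 1949, 2156, 2120, 2235 and 1816 against 4987 to 6053, median 5656 (log2 fold change -1.43, SE 0.12, adjusted p = 2.4e-07). Aars and Tars, the alanyl and threonyl enzymes, fell by 1.02 (adjusted p = 1.6e-05) and 1.04 (adjusted p = 0.00089). The amino acid response element TGATGNAA, which ATF4 is known to bind, stood in 5 of 10 windows of this list and in 2.39% of those of all tested genes. Kars had none in its window, and the part of the element in the fall of the list was not tested. The windows of Aars (chr8:111033703-111033764, plus strand) and Tars (chr15:11399659-11399700, minus strand) held it on the other strand, as TTNCATCA, in capitals below.
Aars: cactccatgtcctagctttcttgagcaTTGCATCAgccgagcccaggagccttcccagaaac
Tars: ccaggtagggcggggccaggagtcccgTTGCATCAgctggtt

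Other genes of the stress responses divided. In the unfolded protein response list 5 of 15 genes fell and 3 rose. Asns, asparagine synthetase and a target of ATF4, was at 316.1, 304.3, 516, 485 and 256 against 1582 to 4719, median 1860 (log2 fold change -2.70, SE 0.31, adjusted p = 5.6e-06), and Trib3, another such target, fell by 2.396 (adjusted p = 0.00076). Sdf2l1, a chaperone component of the endoplasmic reticulum, rose by 1.23 (adjusted p = 0.00071). NRF2 antioxidant genes gave 5 higher and 5 lower of 14 (35.7% each, beside 29.9% and 26.2% of all genes). Gpx2, an epithelial glutathione peroxidase, was at 2.33, 7.21, 4.25, 4.87 and 4.82 against 984 to 23500, median 6648, while Prdx1, a peroxiredoxin of most cells, was at 123000, 137400, 42140, 119300 and 150400 against 13500 to 17690, median 15300 (log2 fold change 2.77, SE 0.27, adjusted p = 1.1e-06). Subunits of the respiratory chain were lower in 7 of 24 genes (29.2%, near the share of all genes) and higher in none. Without entinostat tumour 423 only 4 of them passed.

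In the cholesterol list 18 of 20 genes fell, with none higher and a median of -2.44. Idi1, the isomerase that follows the mevalonate steps, was at 226, 460.4, 268, 182 and 290.0 against 3011 to 11950, median 4256 (log2 fold change -4.20, SE 0.32, adjusted p = 1.5e-07). The highest entinostat tumour was thus far below the lowest vehicle tumour, with a mean difference of about 18.4-fold. Abcg1, which carries cholesterol out of macrophages, moved the other way and was at 10890, 6138, 4358, 8472 and 6717 against 240.3 to 846, median 266 (log2 fold change 4.26, SE 0.34, adjusted p = 2e-07).

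**Figure D3:**
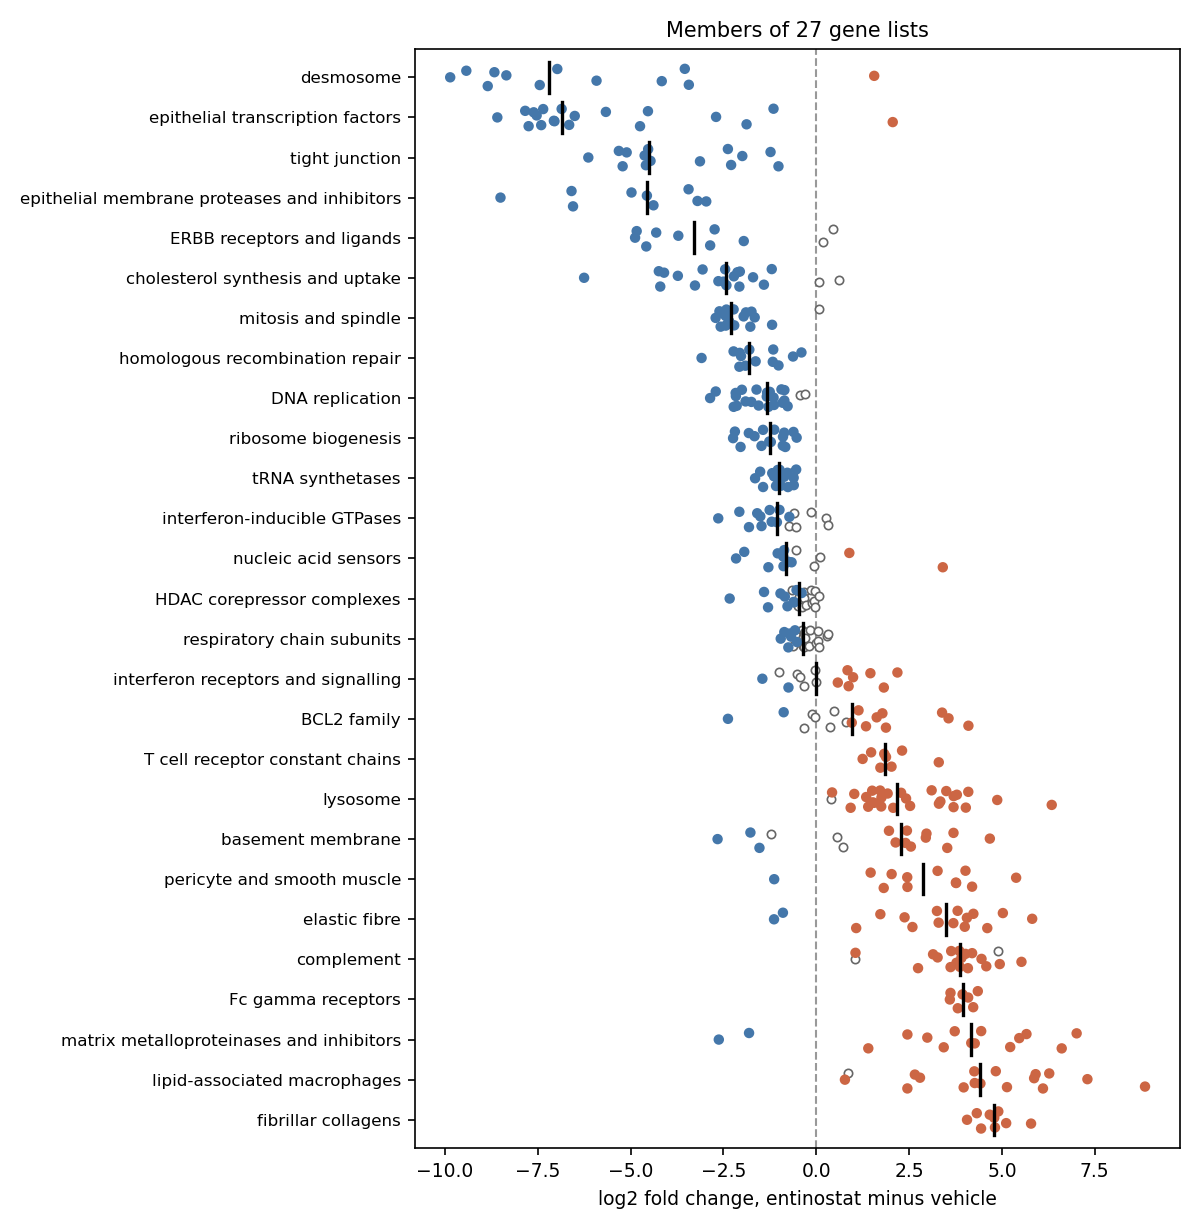
Log2 fold change (entinostat minus vehicle, horizontal axis) of the tested members of 27 gene lists. Filled points passed an adjusted p of 0.05 (blue lower, orange higher), open points did not, the black bar is the median of the list and the dashed line the median of all 17053 genes. The medians of epithelial, cholesterol and division lists lie left of the dashed line, and those of lysosome, complement, matrix and collagen lists right of it.

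Of Hdac1, Hdac2 and Hdac3, which code for targets of the drug itself, only Hdac1 was called. Hdac1 was at 2127, 2178, 2724, 1820 and 2160 against 2796 to 3937, median 3351 (log2 fold change -0.60, SE 0.15, adjusted p = 0.0042), with no overlap. Hdac2 was at 1639, 2243, 2097, 2226 and 1682 against 1891 to 8115, median 2676 (log2 fold change -0.65, SE 0.30, adjusted p = 0.076), and Hdac3 at 1258, 1515, 1754, 2078 and 1367 against 1443 to 3564, median 1929 (log2 fold change -0.46, SE 0.24, adjusted p = 0.11). Neither Hdac2 nor Hdac3 passed the threshold, though both did so without vehicle tumour 402 (adjusted p = 0.032 and 0.048). Among 23 genes of HDAC corepressor complexes 10 fell and none rose (median -0.46), which is a share above the 26.2% of all genes but with small differences. Rcor2, a CoREST subunit, was at 83.9, 112, 73.2, 92.7 and 42.3 against 204 to 593, median 419 (log2 fold change -2.33, SE 0.29, adjusted p = 1.4e-05), and Mta2, a subunit of the NuRD complex, fell by 0.97 (adjusted p = 1.9e-05). Histone acetyltransferases and BET readers had 3 of 12 lower (25.0%, near the share of all genes), or 5 without vehicle tumour 424. Kat2a fell by 1.07 (adjusted p = 3.2e-05).

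Enzymes of DNA methylation and the PRC2 complex were higher in 2 of 11 cases (18.2%) and lower in 3 (27.3%). The shares of all genes were 29.9% and 26.2%. Dnmt3a, a de novo DNA methyltransferase, was at 16830, 7230, 1492, 7120 and 18980 against 408 to 945, median 722 (log2 fold change 3.49, SE 0.50, adjusted p = 4.2e-05), with tumour 418 lowest of its group but above all vehicle tumours. Uhrf1, which brings the maintenance methyltransferase to replicating DNA, was at 277, 347, 341, 279.8 and 401 against 926 to 2564, median 1431 (log2 fold change -2.21, SE 0.23, adjusted p = 2.1e-06). Ezh2, the catalytic subunit of Polycomb complex PRC2, was at 223, 466, 556, 533 and 447 against 1046 to 4486, median 1525 (log2 fold change -1.96, SE 0.32, adjusted p = 0.00013).

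Extracellular matrix genes rose. Over the lists of fibrillar collagens, collagen processing, basement membrane and elastic fibre, 48 of 58 genes were called higher and 5 lower (median 3.26). The 4 fibroblast markers (Col1a1, Col3a1, Pdgfra and Dcn) summed to 907 to 296100 in vehicle and 585300 to 920800 in entinostat tumours, and their part in these results was not tested. Vehicle tumour 402 was the highest of its group in 45 and tumour 405 the lowest in 42 of the 58 genes. All 9 fibrillar collagens rose without overlap of the groups. Col3a1 was at 586000, 392100, 580900, 325900 and 352300 against 373 to 181100, median 8712 (log2 fold change 5.79, SE 1.30, adjusted p = 0.0016), and Col24a1, a minor fibrillar collagen, at 371, 436, 338, 411 and 477 against 0 to 151, median 10.7 (log2 fold change 5.11, SE 0.89, adjusted p = 0.00021). The entinostat tumours lay close together in both, while the vehicle tumours were spread far apart.

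Collagen processing enzymes rose in 15 of 17 genes. Adamts14, which trims procollagen, was at 808, 564, 499.7, 736 and 454 against 21.5 to 118, median 35.8 (log2 fold change 3.90, SE 0.44, adjusted p = 4.6e-06), and Loxl2, which crosslinks collagen, rose by 4.07 (adjusted p = 0.00055). In the basement membrane list 10 of 16 genes rose and 3 fell. Lamc1, the common laminin chain, rose by 1.96 (adjusted p = 0.0002), whereas Agrn, the proteoglycan agrin, was at 1194, 1241, 2022, 1542 and 1207 against 3201 to 7009, median 5081 (log2 fold change -1.77, SE 0.24, adjusted p = 2.5e-05). Col4a5, a chain that epithelial cells make, fell by 2.66 with overlap of the groups (adjusted p = 0.00093). Mfap4, a microfibril protein, was at 8898, 9952, 16410, 12520 and 9577 against 10.4 to 2745, median 218 and led the 14 of 16 elastic fibre genes that rose (log2 fold change 5.82, SE 1.02, adjusted p = 0.00025). Tnn, the matrix protein tenascin N, was at 17350, 11350, 4583, 6420 and 6663 against 3.00 to 134, median 13.3 (log2 fold change 8.97, SE 1.07, adjusted p = 8.3e-06).

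Enzymes that degrade matrix rose as well. Of 15 metalloproteinases and inhibitors 13 rose and 2 fell. Mmp12, the elastase of macrophages, was at 342100, 205600, 29340, 160500 and 380200 against 443 to 4609, median 1424 (log2 fold change 7.01, SE 0.69, adjusted p = 1.4e-06), and tumour 418 was the lowest of the entinostat group. Mmp13, a collagenase, was at 78840, 92920, 169400, 57740 and 70340 against 879.8 to 3954, median 1669 (log2 fold change 5.66, SE 0.49, adjusted p = 3.8e-07), and here tumour 418 was the highest. Mmp10, a stromelysin, was at 6489, 3100, 1474, 3794 and 1331 against 25.5 to 148, median 51.7 (log2 fold change 5.47, SE 0.68, adjusted p = 1.2e-05). The 2 that fell were Mmp15, a membrane-bound member, by 2.63, and Mmp28, an epithelial member, by 1.81 on the log2 scale.

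Of 15 genes of the TGF beta pathway 5 rose and 3 fell, near the shares of all genes (29.9% and 26.2%). Without entinostat tumour 421 only 1 fell, and without vehicle tumour 424 it was 4. Tgfb1 was at 2885, 2289, 2085, 3246 and 2357 against 834 to 1547, median 1432 (log2 fold change 1.05, SE 0.21, adjusted p = 0.00061). Tgfb2 and Tgfb3 missed the threshold, at 1.33 (adjusted p = 0.096) and 0.85 (adjusted p = 0.37) on the log2 scale. With vehicle tumours 408 and 414 averaged, Tgfb2 passed it at 1.65 (adjusted p = 0.044). The receptor gene Tgfbr1 was at 4230, 4811, 2642, 2345 and 5633 against 654 to 1766, median 970.0 (log2 fold change 1.86, SE 0.30, adjusted p = 0.0001).

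Genes of pericytes and smooth muscle, the cells of the vessel wall, were higher in 11 of 12 cases and lower in 1. Their 4 markers (Rgs5, Cspg4, Myh11 and Acta2) summed to 660.3 to 18780 in vehicle and 20870 to 45260 in entinostat tumours. The 3 endothelial markers (Pecam1, Cdh5 and Kdr) summed to 489 to 15500 and 7080 to 12310, and vehicle tumour 402, the highest of all 11, overlapped with the entinostat tumours. Pecam1, an adhesion molecule of endothelium, was at 4484, 4431, 7566, 4679 and 4685 against 265 to 6893, median 672 (log2 fold change 2.37, SE 0.63, adjusted p = 0.005). Pdgfrb, the receptor that recruits pericytes, was at 7524, 7438, 10370, 6321 and 7076 against 77.2 to 4250, median 435 (log2 fold change 4.02, SE 0.77, adjusted p = 0.00047). Des, the muscle filament desmin, was at 1407, 14020, 1282, 2750 and 2078 against 20.3 to 331.8, median 48.0, and tumour 413 stood out. The same tumour had the most skeletal muscle RNA: 5 muscle markers (Acta1, Ckm, Myh4, Myh1 and Tnnt3) summed to 80.2 to 345500 in entinostat and 5.65 to 104 in vehicle tumours. Acta1, skeletal actin, was at 721, 132500, 55.4, 725 and 4466 against 0.634 to 6.66, median 1.99, and the part of muscle RNA in the Des difference was not tested. Of 6 adhesion molecules for leukocytes on endothelium 5 rose. Glycam1, a ligand of L-selectin on high endothelial venules, was at 85.9, 38.4, 143, 136 and 128 against 0 to 6.18, median 0.943 (log2 fold change 5.56, SE 0.61, adjusted p = 3.7e-06), and Vcam1 at 3629, 4948, 7818, 3593 and 6207 against 141 to 2903, median 469 (log2 fold change 3.10, SE 0.56, adjusted p = 0.00028). Selp, P-selectin, rose by 4.31 (adjusted p = 0.00011). Pdpn, found on lymphatic endothelium, fibroblasts and macrophages, was at 12250, 7726, 6560, 12810 and 9992 against 16.4 to 1445, median 178 (log2 fold change 5.49, SE 0.88, adjusted p = 0.00012), while Prox1, the defining lymphatic factor, missed the threshold at 1.497 (adjusted p = 0.053) and passed without vehicle tumour 410 (1.77, adjusted p = 0.027). In the lymphatic list 3 of 7 genes rose and none fell. That number was 1 with a pseudocount of 0.1, 2 with cyclic loess scaling or without vehicle tumour 405, and 5 with a pseudocount of 10 or without vehicle tumour 410. Pmp22, a myelin protein also made by fibroblasts, rose by 3.75 (adjusted p = 4.3e-05). Of 8 Schwann cell genes 3 rose and 1 fell, and of 3 tested genes of hair follicle and sebaceous gland 1 fell, or 2 without entinostat tumour 423 or vehicle tumour 402.

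Genes of the macrophage, lysosome and complement lists rose together. Over the lists of lipid-associated macrophages, lysosome, complement, Fc gamma receptors and polarization, 79 of 87 genes were called higher and none lower (median 3.62). Among the 87 were 28 lysosome and 20 complement genes, which are not particular to macrophages. The 3 macrophage markers (Cd68, Csf1r and Adgre1) summed to 1534 to 10240 in vehicle and 38000 to 54950 in entinostat tumours, and their part in these results was not tested. Csf1r, the receptor macrophages need for survival, was at 16320, 14200, 17280, 16180 and 13280 against 538 to 6242, median 1187 (log2 fold change 3.37, SE 0.52, adjusted p = 8.2e-05). Lyz2 was at 871900, 592300, 243300, 757800 and 531400 against 1011 to 40000, median 6248 (log2 fold change 6.50, SE 0.79, adjusted p = 1e-05). Tumour 402 was the vehicle tumour nearest to the entinostat group for both genes.

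The lipid-associated macrophage list had 16 of 17 genes higher. Cd36, the scavenger receptor for fatty acids and oxidized lipoprotein, was at 76440, 64220, 11720, 40840 and 85660 against 10.7 to 438, median 83.7 (log2 fold change 8.85, SE 0.85, adjusted p = 1.1e-06). Plin2, which coats lipid droplets, was at 52480, 44650, 22410, 50450 and 48260 against 1036 to 5095, median 2881 (log2 fold change 3.97, SE 0.35, adjusted p = 4.7e-07). Spp1 was at 443700, 505000, 57530, 359100 and 555300 against 408 to 8602, median 1907 (log2 fold change 7.30, SE 0.83, adjusted p = 5.5e-06). In all 3 tumour 418 was the lowest entinostat tumour and lay above every vehicle tumour. Npy, neuropeptide Y, is not a member of this list. It was at 3930, 1748, 165, 4431 and 2326 against 0 to 2.55, median 0.631 (log2 fold change 9.98, SE 0.94, adjusted p = 8.6e-07), with 418 again lowest of its group. Of 7 osteoclast genes 6 rose and none fell, among them Atp6v0d2, a proton pump subunit, at 14020, 11950, 1890, 8035 and 15090 against 24.2 to 244, median 28.01 (log2 fold change 7.58, SE 0.64, adjusted p = 3.1e-07).

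Lysosomal genes rose in 27 of 28 cases (median 2.18). Psap, the precursor of saposins, was at 453900, 408700, 220200, 411500 and 402800 against 12620 to 36190, median 22120 (log2 fold change 4.03, SE 0.26, adjusted p = 4.2e-08), and Ctsb, cathepsin B, at 309500, 246700, 175000, 249200 and 291400 against 13330 to 35410, median 15440 (log2 fold change 3.79, SE 0.25, adjusted p = 4.8e-08). Creg1, a glycoprotein of lysosomes, rose by 3.37 (adjusted p = 3.5e-08). The ferritin gene Fth1, which stores iron, rose by 3.19 (adjusted p = 9.1e-08). Rises were about 16.3-fold for Psap and 13.8-fold for Ctsb, and every entinostat tumour was above every vehicle tumour in both.

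Complement genes rose in 18 of 20 cases. C1qb, a chain of the recognition protein C1q, was at 44010, 46300, 55820, 65410 and 36760 against 774 to 11390, median 2317 (log2 fold change 4.08, SE 0.58, adjusted p = 3.7e-05). C3, the central component, was at 45210, 28430, 59490, 39070 and 25640 against 927 to 18980, median 2002 (log2 fold change 3.62, SE 0.65, adjusted p = 0.0003), and C3ar1, its receptor, at 14460, 12770, 8329, 12160 and 18030 against 87.7 to 1211, median 216 (log2 fold change 5.53, SE 0.56, adjusted p = 1.7e-06). Ligand and receptor were thus both higher in every entinostat than in every vehicle tumour. All 7 genes of Fc gamma receptors and their signalling rose, from 3.597 to 4.35 on the log2 scale. Fcgr4 was at 3602, 5108, 8060, 4690 and 3875 against 114 to 982, median 231 (log2 fold change 4.09, SE 0.52, adjusted p = 1.4e-05), and Syk, the kinase that acts below these receptors, rose by 3.61 (adjusted p = 2.1e-06). In the macrophage polarization list 11 of 15 genes rose, none fell and 4 were not called. Markers of both textbook polarization states were higher, namely Cd86, a costimulator, by 3.56 (adjusted p = 1.1e-05) and Mrc1, the mannose receptor, by 3.73 (adjusted p = 0.0009). Toll-like receptor genes rose in 9 of 14 cases and 1 fell. Tlr7, the endosomal receptor for single-stranded RNA, was at 1973, 1669, 1229, 1448 and 1471 against 15.8 to 246, median 37.9 (log2 fold change 5.03, SE 0.55, adjusted p = 3.7e-06).

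Genes of other innate leukocytes rose in part. Mast cell genes rose in 6 of 9 cases, always with overlap of the groups, as for Mcpt4, a mast cell protease, at 311.7, 364, 1302, 689.7 and 151 against 15.6 to 282, median 46.1 (log2 fold change 2.82, SE 0.70, adjusted p = 0.0031). All 4 tested eosinophil genes rose, among them Ear2 at 1049, 201, 235, 1036 and 159.6 against 3.78 to 112, median 14.2 (log2 fold change 4.31, SE 0.91, adjusted p = 0.001), although the granule gene Epx stayed under 10 in all 11 tumours. Of 6 genes of plasmacytoid dendritic cells 3 rose and 1 fell. The gene that fell was Ly6d, at 15.1, 81.8, 889.5, 26.0 and 296 against 3063 to 13260, median 10520 (log2 fold change -6.41, SE 0.92, adjusted p = 4.5e-05). Ly6d is also a gene of stratified epithelium. The defining marker pair Siglech and Ccr9 summed to 5.70 to 13.1 in vehicle and 3.42 to 80.2 in entinostat tumours.

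T cell receptor and CD3 genes were higher in entinostat tumours, with all 8 tested genes up (median 1.85). Cd3d was at 341, 348, 585, 566 and 802 against 42.9 to 137, median 110.2 (log2 fold change 2.31, SE 0.31, adjusted p = 2.4e-05), and Trac, the constant part of the alpha chain, at 266, 268, 415, 398 and 572 against 52.6 to 113, median 100.4 (log2 fold change 2.03, SE 0.29, adjusted p = 4.4e-05). In both genes every entinostat tumour was above every vehicle tumour. Cd8b1 was at 273, 286, 547, 326.1 and 783 against 39.1 to 121, median 104 (log2 fold change 2.15, SE 0.34, adjusted p = 8.9e-05). Cd8a, which codes for the other chain of CD8, was at 264, 409, 659, 282 and 1081 against 109 to 364, median 340.2, overlapped between the groups and missed the threshold (log2 fold change 0.78, SE 0.38, adjusted p = 0.091), which it passed without entinostat tumour 411 (0.98, adjusted p = 0.046). Cd4 rose with overlap, at 288, 258, 359, 218 and 791 against 30.2 to 600.0, median 69.7 (log2 fold change 2.01, SE 0.63, adjusted p = 0.013). Of the 3 coreceptor genes, Cd8b1 was thus the only one whose groups were apart.

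Of 10 granzyme and perforin genes, which code for effector proteins, 4 were higher, 1 was lower and 5 were not called. Of all genes, 29.9% were higher and 26.2% lower. Gzmb, granzyme B, was at 423, 594, 1024, 404 and 378 against 99.9 to 217, median 129.9 (log2 fold change 1.89, SE 0.29, adjusted p = 6.9e-05). Gzma, granzyme A, was at 36.1, 32.4, 136, 71.4 and 45.9 against 130.2 to 1618, median 873 (log2 fold change -3.64, SE 0.53, adjusted p = 4.5e-05), with an overlap of vehicle tumour 402 and entinostat tumour 418 alone. Lineage transcription factors were higher in 4 of 11 cases and lower in 4 (36.4% each, beside 29.9% and 26.2% of all genes). Tbx21, the factor T-bet of type 1 T and NK cells, was at 46.5, 66.0, 98.1, 71.3 and 84.2 against 6.75 to 22.9, median 12.3 (log2 fold change 2.43, SE 0.34, adjusted p = 3.2e-05), while Eomes fell by 2.56 with overlap (adjusted p = 0.0011). Gata3, a factor of both type 2 T cells and urothelium, was at 87.7, 96.2, 292, 230.3 and 129 against 666 to 3116, median 766 (log2 fold change -2.70, SE 0.39, adjusted p = 5e-05). The NK markers Ncr1 and Klrb1c summed to 2.54 to 31.9 in vehicle and 61.2 to 166 in entinostat tumours. Most of the sum in entinostat tumours was Klrb1c, at 115, 61.2, 44.1, 78.2 and 160 against 1.04 to 19.3. Ncr1 overlapped between the groups, at 6.97, 0, 17.0, 1.62 and 6.02 against 0 to 12.7, and was too low to be tested.

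Immunoglobulin constant genes rose in 8 of 11 cases, and in 5 without entinostat tumour 423. Igkc, the kappa chain, was at 1562, 6960, 47570, 2659 and 149000 against 14.4 to 3635, median 109.6 (log2 fold change 5.96, SE 1.58, adjusted p = 0.0049), so that tumours 418 and 423 held most of it and the groups overlapped. Igha, the heavy chain of IgA, was at 1034, 2681, 39700, 2449 and 12990 against 0 to 320.3, median 39.5 (log2 fold change 7.16, SE 1.47, adjusted p = 0.00079). Markers of B cells were highest in tumour 423 too, with Cd79a, part of the B cell receptor, at 4.65, 37.2, 100.1, 4.87 and 490.2 against 1.503 to 19.6, median 2.85 and Ms4a1, the surface protein CD20, at 2.69, 48.2, 6.13, 1.55 and 198 against 0 to 10.9. The 3 plasma cell markers (Sdc1, Xbp1 and Jchain) went the other way as a sum, with overlap. It was 25890 to 67870 in vehicle and 13700 to 35410 in entinostat tumours. In vehicle tumours most of that sum was Sdc1, the syndecan also found on epithelia, which fell by 1.96 (adjusted p = 5.5e-06), while Jchain, which joins IgA and IgM, rose by 5.71 (adjusted p = 0.0063). The part of these cells in the immunoglobulin values was not tested.

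Interferon receptors and interferon-induced genes parted. In the list of receptors and signalling 7 of 15 genes rose and 2 fell. Ifnar2, a chain of the type I receptor, was at 3620, 3610, 3471, 4873 and 3316 against 512 to 1474, median 797 (log2 fold change 2.19, SE 0.25, adjusted p = 5.1e-06). Ifngr1, the ligand-binding chain for interferon gamma, was at 9504, 7273, 8855, 7942 and 7949 against 1273 to 4088, median 2582 (log2 fold change 1.82, SE 0.24, adjusted p = 1.9e-05). Both receptor genes were thus higher in every entinostat than in every vehicle tumour. Irf1, a transcription factor induced early by interferon, did not pass the threshold at 2347, 2665, 5770, 2661 and 3318 against 3762 to 6353, median 4252 (log2 fold change -0.51, SE 0.22, adjusted p = 0.057). Tumour 418 was the highest entinostat tumour for Irf1, and without it the gene passed with a log2 fold change of -0.73 (adjusted p = 0.003).

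Of 17 interferon-inducible GTPases 11 fell and none rose (median -1.06). Irgm1, a regulator of this family, was at 2520, 2330, 4173, 2056 and 2477 against 6670 to 10150, median 7472 (log2 fold change -1.59, SE 0.19, adjusted p = 7.3e-06). Tgtp1 was at 588, 884, 1944, 705 and 598 against 2927 to 9642, median 5252 (log2 fold change -2.64, SE 0.32, adjusted p = 1.1e-05), and its near-identical copy Tgtp2 makes the split of reads between the pair uncertain. Gbp3, a guanylate-binding protein, fell by 1.202 (adjusted p = 0.00012). Promoters are shown because these genes are classic targets of interferon signalling at the interferon-stimulated response element, searched as GAAANNGAAA. It stood in 9 of 10 windows of the list and in 3.19% of the windows of all tested genes, both strands searched. The list holds known targets of this element, and the near-identical Tgtp1 and Tgtp2 are both among the 9. The part of the element in the fall was not tested. Irgm1 is from chr11:48871421-48871471, minus strand, and Tgtp1 from chr11:48992287-48992350, minus strand, with the match in capitals.
Irgm1: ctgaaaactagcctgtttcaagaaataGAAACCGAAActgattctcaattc
Tgtp1: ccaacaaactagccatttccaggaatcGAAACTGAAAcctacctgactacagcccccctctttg

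Sensors of foreign nucleic acid fell in 9 of 14 cases and rose in 2, or in 1 without entinostat tumour 418 or 423 or vehicle tumour 408, 414 or 424. Aim2, a cytosolic DNA sensor of myeloid cells, was at 953, 785, 587, 413 and 1097 against 34.4 to 189.9, median 59.4 (log2 fold change 3.41, SE 0.41, adjusted p = 9.4e-06). Oas3, which makes 2-5A in answer to double-stranded RNA, was at 306.1, 244, 426, 291 and 449 against 924 to 4266, median 1045 (log2 fold change -1.94, SE 0.42, adjusted p = 0.0013), and vehicle tumour 405 was far above the other vehicle tumours. In the list of the NKG2D receptor and its ligands 4 of 7 genes rose and 2 fell (1 without entinostat tumour 413, 418 or 421), with the ligand gene H60c at 3.48, 8.39, 2.13, 1.62 and 2.405 against 195 to 956, median 327.2 (log2 fold change -6.43, SE 0.42, adjusted p = 4.4e-08) and Raet1d at 663, 644, 343, 509 and 679 against 3.79 to 78.7, median 16.3 (log2 fold change 5.01, SE 0.55, adjusted p = 3.6e-06).

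Among cytokines of the interleukin 6 family 8 of 11 genes rose and 1 fell. The gene that fell was Lif, at 85.8, 56.8, 50.5, 70.6 and 98.5 against 223 to 972, median 490.5 (log2 fold change -2.64, SE 0.37, adjusted p = 3.1e-05), while Osm, oncostatin M of myeloid cells, rose by 2.31 (adjusted p = 9.8e-05). The interleukin 1 family had 6 of 11 genes higher and 2 lower. None of the lower calls held without entinostat tumour 413, without vehicle tumour 414 or with vehicle tumours 408 and 414 averaged. Il1rl1, the receptor for interleukin 33, was at 937, 525, 480.5, 643 and 406 against 15.1 to 159, median 33.3 (log2 fold change 3.76, SE 0.49, adjusted p = 2e-05). Of 13 death signals of the TNF family 6 rose and 1 fell. Tnfrsf1b, a TNF receptor of leukocytes, rose by 3.86 (adjusted p = 2.7e-06). Mlkl, the executioner of necroptosis, was the 1 that fell, by 1.11 (adjusted p = 0.0015). In the BCL2 family 9 of 17 genes rose and 2 fell, with rises both in inhibitors of apoptosis and in promoters of it. Mcl1, an inhibitor, was at 19950, 17490, 13600, 19350 and 19310 against 5815 to 8174, median 7064 (log2 fold change 1.34, SE 0.15, adjusted p = 3.5e-06), and Bcl2l11, the promoter BIM, at 1542, 1566, 1279, 1133 and 1680 against 344 to 694, median 462 (log2 fold change 1.63, SE 0.18, adjusted p = 3.9e-06).

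**Figure D4:**
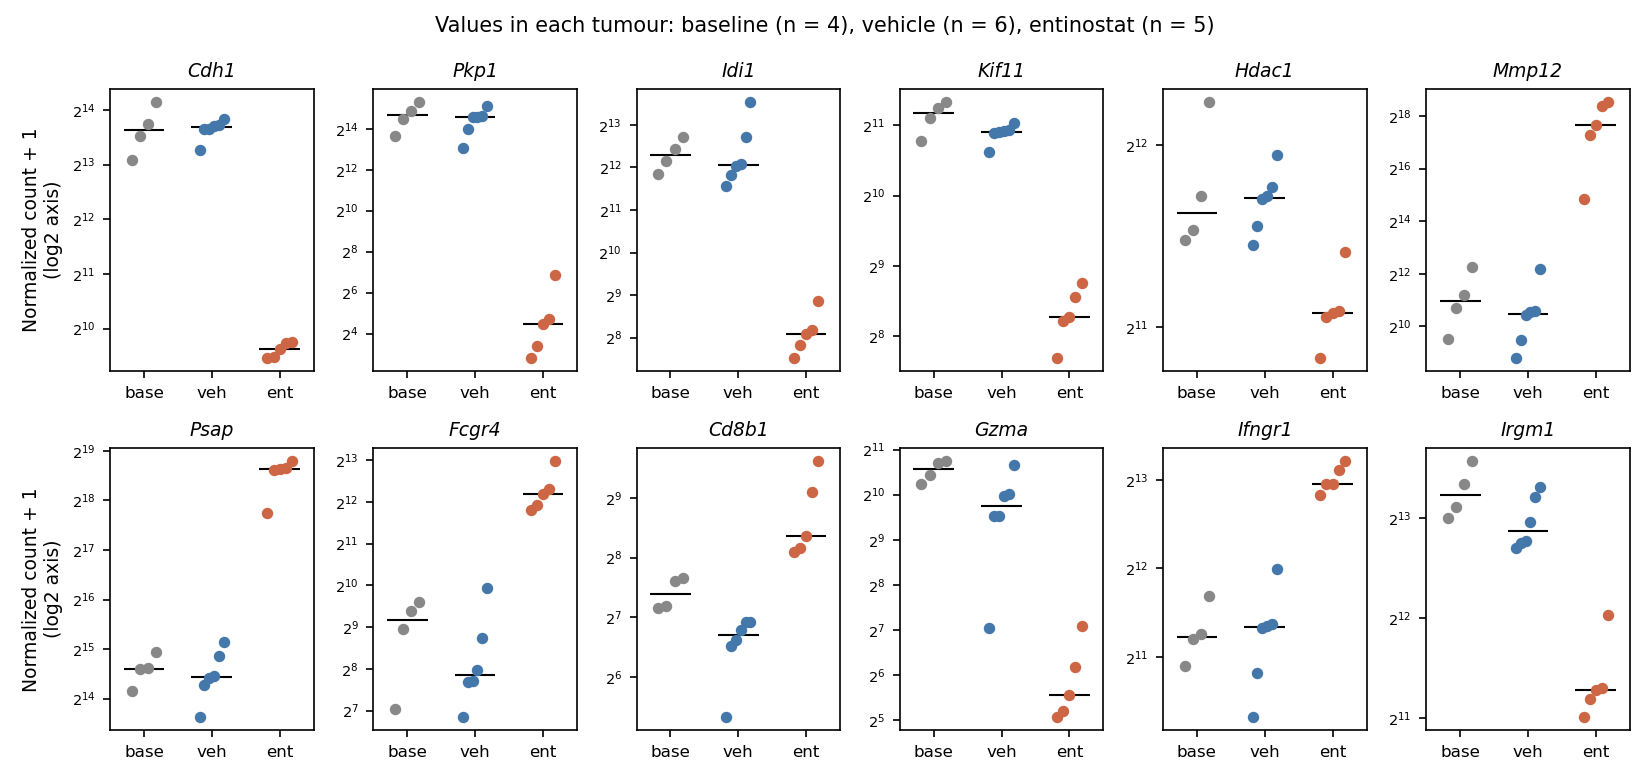
Normalized count plus 1 on a log2 axis for 12 genes in each baseline (base, n = 4), vehicle (veh, n = 6) and entinostat (ent, n = 5) tumour of B6 mice, with the median of each group as a line. Cdh1, Pkp1, Idi1, Kif11, Hdac1 and Irgm1 lie lower and Mmp12, Psap, Fcgr4, Cd8b1 and Ifngr1 higher in every entinostat than in every vehicle tumour, and Gzma overlaps between the groups.

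Genes under hormonal and circadian control were tested as well. Of 10 glucocorticoid response genes 7 rose and none fell. Tsc22d3, the glucocorticoid-induced leucine zipper, was at 12000, 7805, 13240, 17410 and 10080 against 1496 to 3915, median 1917 (log2 fold change 2.497, SE 0.25, adjusted p = 1.4e-06), and Sgk1, a kinase under the same control, at 12300, 8560, 4275, 7316 and 9350 against 1438 to 2817, median 2407 (log2 fold change 1.88, SE 0.26, adjusted p = 3.1e-05). Clock genes were higher in 4 of 17 cases (23.5%) and lower in 5 (29.4%), near the shares of all genes (29.9% and 26.2%). Ciart, a clock repressor, was at 36.8, 23.7, 73.1, 48.0 and 42.9 against 209 to 391, median 277 (log2 fold change -2.73, SE 0.27, adjusted p = 1.2e-06), and the labels give no hour of collection. Usual reference genes were not stable. Of 12 housekeeping genes 7 fell and 2 rose. Gapdh was at 35940, 52080, 23540, 54790 and 28980 against 48290 to 108900, median 57250 (log2 fold change -0.80, SE 0.25, adjusted p = 0.014), and Gusb, a lysosomal enzyme, at 13750, 9632, 6375, 14720 and 12110 against 2006 to 3604, median 2372 (log2 fold change 2.07, SE 0.22, adjusted p = 3.1e-06). Actb rose by 0.89 (adjusted p = 0.018) but not under quantile scaling of the libraries (0.15, adjusted p = 0.67).

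Some genes kept their level. In 737 genes (4.32%) the 95% interval of the log2 fold change lay within 0.5 of 0. The 5 abundant genes with the interval nearest to 0 were Dnajc8, D17Wsu92e, Nrd1, Mff and Med22. Dnajc8, a cochaperone linked to splicing, was at 2168, 2281, 2290, 2528 and 2003 against 2020 to 2398, median 2268, with an interval of -0.23 to 0.22.

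The line was also grown in NSG mice, a strain without lymphocytes or NK cells, with 5 entinostat and 5 vehicle tumours. Whether the B6 response differed was tested as the difference between the responses of the hosts, and it passed for 7104 of 16335 genes (43.5%), 3894 with B6 above NSG (23.8%) and 3210 below (19.7%). The labels state neither dose nor tumour volume for NSG mice, and each response was taken within its own host, since the hosts' tables were normalized separately. Lad1, with -6.84 in B6 mice, had a log2 fold change of -0.02 in NSG mice, a difference of -6.82 (SE 0.31, adjusted p = 4e-15). Cdh1 had -4.02 in B6 and 0.36 in NSG mice, a difference of -4.38 (SE 0.29, adjusted p = 1.3e-11). Trp63 had -7.36 in B6 and -0.03 in NSG mice, a difference of -7.33 (SE 0.99, adjusted p = 1.6e-06). In all 3 epithelial genes the fall in B6 tumours exceeded the NSG value. The genes compared between hosts here and below were chosen with their B6 values known, and these values enter the difference. The tests describe these genes only and are not taken as support for a general host difference.

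Genes of other groups differed between the hosts as well. Cdc20 had -3.12 in B6 and -0.18 in NSG mice, a difference of -2.95 (SE 0.22, adjusted p = 8.2e-11). Psap had 4.03 in B6 and 0.14 in NSG mice, a difference of 3.89 (SE 0.30, adjusted p = 2.2e-10). Lyz2 had 6.50 in B6 and 0.64 in NSG mice, a difference of 5.86 (SE 0.92, adjusted p = 1.3e-05), and Mmp12 had 7.01 in B6 and -0.21 in NSG mice, a difference of 7.22 (SE 0.83, adjusted p = 1.4e-07). A smaller difference was seen for Tgfb1, with 1.05 in B6 and -0.17 in NSG mice, a difference of 1.22 (SE 0.24, adjusted p = 0.00019). For Eef1a1, which fell in B6 tumours by 0.71 (adjusted p = 0.0011), the difference between hosts did not pass (-0.48, adjusted p = 0.064). It did pass under 1 of the alternative settings, so this miss depends on the processing.

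**Figure D5:**
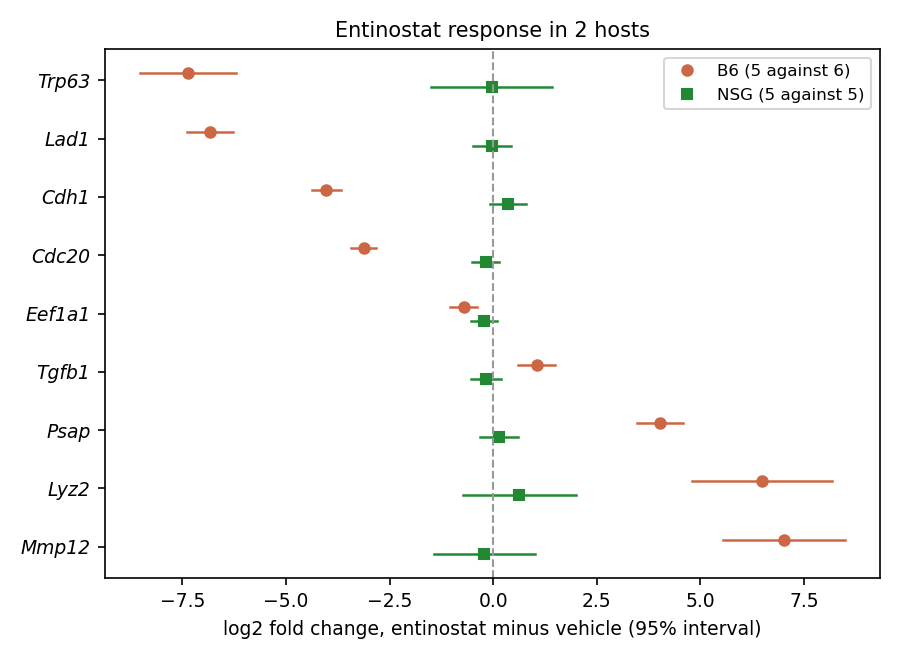
Log2 fold change (entinostat minus vehicle, horizontal axis) with its 95% interval for 9 genes in B6 tumours (circles, 5 against 6) and NSG tumours (squares, 5 against 5). The NSG values lie between -0.23 and 0.64 while the B6 values run from -7.36 to 7.01.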

How the data were processed

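RNA was extracted with RNeasy Plus Mini columns and made into TruSeq Stranded mRNA libraries, per the labels' protocols. The deposited values are a signal in normalized counts, made by the authors with STAR and DESeq2 on build mm10, per the submitters' processing notes. The counting step, its strand setting and the tool versions are not given in the sources used here. Overlapping and near-identical genes may therefore share reads. In the 11 tumours 37.0 to 76.7% of values under 10 lay within 0.05 of a whole multiple of the estimated value of 1 read, so reads were not recovered and no count test was run.

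Gene symbols were found for 47187 of 47606 identifiers. Genes with at least 10 in at least 4 of the 15 B6 libraries (baseline included) were tested with limma 3.58.1 in R 4.3.3 on log2(value + 1), with a trended and robust prior, Benjamini-Hochberg adjustment over all genes tested and a threshold of 0.05. The difference between hosts was an interaction in 1 fit of 30 libraries, for genes that also had at least 10 in at least 5 NSG libraries. The members and the 58 gene lists were chosen with earlier results of these data known. Genes named were the 10 largest differences in each direction (called, no overlap, a mean of at least 500), the 10 largest gains and losses of share, the members with the smallest p in each list (up to 4), the 10 smallest p in each direction, a set of always reported genes, and the 5 abundant genes nearest to no difference. Some genes that this rule names are not reported here. Predicted genes were passed over in the largest differences and shares. Pkp2, Pparg, Rb1, Rbl2, E2f1, E2f2, Mmp15, Mmp28, Prox1, Pecam1, Cd79a, Ms4a1, Sdc1, Csf1r, Spp1 as a macrophage gene, and the promoters shown were chosen after their values were seen. Alternatives changed the pseudocount, filter, scaling, libraries and prior, left out each tumour, and averaged vehicle tumours 408 and 414, which was added after seeing the data. The fit was tested on simulated data.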

Additional observations from a re-analysis of the deposited data

Results flagged for a closer look

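A tumour far from the others of its group was found in 24 vehicle and 15 entinostat groups of values, out of 159 genes looked at in each group. The cut-off is set to pick about 1 in 20 groups of independent, normally distributed values. These genes were picked from the same data and often moved together, so the counts are not read as an excess over that rate. Entinostat tumour 418 accounted for 8. It was lowest for Spp1 (57527 normalized counts), Prdx1 (42140), Plin2 (22408), Psap (220180), Npy (164.7) and Creg1 (7366), and highest for Erbb2 (448.1) and Irgm1 (4173). It was also the entinostat tumour with the highest values in 33 of 70 epithelial genes. Its values were lowest in 35 of 87 genes of the macrophage, lysosome and complement lists.

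Among the other entinostat tumours, 421 was lowest for Klf5 (0) and Ccnd1 (529.9) and highest for Ifnar2 (4873) and Mlkl (915.8). Tumour 411 was lowest for Ezh2 (223.4) and Cd86 (1615), and tumour 423 for Cldn4 (19.26).

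Of the vehicle tumours, 405 was lowest for the T cell genes Cd3d (42.87), Cd8a (109.1) and Cd8b1 (39.09) and highest for Gsto1 (415696) and Oas3 (4266). Tumour 402 was lowest for Cdh1 (9827), Otx1 (93.86), Gzma (130.2) and Rplp0 (58478) and highest for Atp6v0d2 (244.3) and Cd4 (600.0). Tumour 424 was highest for Xist (43955), Ezh2 (4486), Gata3 (3116), Mlkl (2559), Tsc22d3 (3915), Rb1 (848.2) and Actb (147613) and lowest for Kif11 (1566). Xist was at 1810 to 4161 in the other vehicle tumours. Tumour 410 was highest for Sdf2l1 (888.3), Selp (171) and Ckm (2.451) and lowest for Egfr (1067) and Eomes (19.71).

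The response to entinostat differed between B6 and NSG mice, by the interaction term in limma, for 8 of the 9 genes compared. It did so for 43.5% of all 16335 genes tested, and the 9 genes were named for their B6 values, which enter the difference, so that nothing about the hosts is read from this number. The log2 difference (B6 minus NSG) was 5.86 for Lyz2, -4.38 for Cdh1, -7.33 for Trp63, -6.82 for Lad1, -2.95 for Cdc20, 7.22 for Mmp12, 1.22 for Tgfb1 and 3.89 for Psap.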

How the results depend on the processing

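Under the 20 alternatives the calls ran from 4086 to 5745 genes higher and from 4021 to 5305 lower. Of the 9553 calls, 8080 to 9456 were kept in the same direction, and none was called in the opposite one. Quantile scaling moved the median log2 fold change of all genes by -0.15 and the share of calls that were higher from 53.3% to 46.2%. Leaving out 1 tumour gave 4651 to 5165 genes higher and 4034 to 4619 lower. Of 159 genes, 146 kept their call and direction under every alternative.

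List medians that moved by more than the SD between tumours of a group, or turned from a value above that SD, were tight junction (-4.02) and epithelial transcription factors (-5.88), eosinophils (2.22) and NKG2D (1.51) with a pseudocount of 10. With cyclic loess scaling eosinophils were at 2.33 and NKG2D at 1.39. With quantile scaling homologous recombination was at -2.02 and G1 cyclins at -0.86. With the stricter filter T cell transcription factors were at -1.62, granzymes at 1.56 and the glucocorticoid response at 1.14, and without a filter the hair follicle list was at -0.33. Fewer or more genes were tested in these. Without 1 tumour the medians ran from -0.48 to 0.0162 for NRF2 genes (highest without vehicle tumour 424), from 0.36 to 1.09 for the TGF beta pathway, from 1.98 to 2.84 for osteoclast genes and from -0.40 to -0.00772 for the clock. Moves within that SD included the lymphatic list (2.61, to 1.63 with a pseudocount of 10 and 1.49 with cyclic loess), mast cells (2.21, to 1.44 and 1.45), granzymes (0.54, to 0.0743 with cyclic loess), immunoglobulin constant genes (4.58, to 5.70 with a pseudocount of 0.1) and the unfolded protein response (0.11, to -0.0344 without entinostat tumour 423). The causes of the other moves were not tested.

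Genes without a call changed sign: Dnajc8 was at 0.0627 with cyclic loess, 0.00726 with vehicle tumours 408 and 414 averaged and -0.0462 to 0.0377 without 1 tumour. Mff was at -0.0660 with quantile scaling and -0.0435 to 0.0606 without 1 tumour, and Xist at -0.38 to 0.54 without 1 tumour. Eef1a1 lost its call with cyclic loess (-0.46, adjusted p = 0.095). Hdac2 and Irf1 gained one with quantile scaling (-0.72 and -0.67, adjusted p = 0.023 and 0.024).

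No paired analysis was possible because the treated and vehicle tumours share no animal number. Depth in reads could only be estimated. At 3 reads, a value of 0 allows about 1.84 to 6.41 normalized counts over the 11 tumours, for counting error only.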
